A study of Caenorhabditis elegans with 18 samples.

Results

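Transfer RNA (tRNA) genes were followed across iCLIP libraries of the RNA-binding proteins FBF-1 and FBF-2 from Caenorhabditis elegans whose germline made sperm or oocytes. In iCLIP, proteins are crosslinked to RNA in the animal, pulled down with an antibody, and the RNA fragments that come with them are sequenced. The genes described here were selected on their measured counts: of 696 rows of the gene table with a tRNA gene name, 202 held 100 or more counts summed over all 18 libraries. Of the other rows, 432 held 1 to 99 counts and 62 held none. The 202 genes carried 95.1% of all counts on tRNA rows, or 228605 counts. Just above the minimum were C43G2.t1 and R11.t3 with 102 counts each and F15G9.t2 with 103. Just below it were F14F7.t1 with 98 counts and F28H6.t7 and T03E6.t1 with 97 each.

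The groups were FBF-1 and FBF-2 iCLIP and no-antibody controls from spermatogenic worms, and the same 3 kinds of library from oogenic worms, with 3 replicates in each group. In every strain made for FBF iCLIP, an N-terminal 3xFLAG transgene present in single copy, qSi232 for FBF-1 or qSi75 for FBF-2, stood in for the endogenous gene, which was deleted by fbf-1(ok91) or fbf-2(q738). The spermatogenic strains also carried fem-3(q22), a temperature-sensitive gain-of-function allele that keeps an XX germline making sperm. All worms were chromosomally XX early adults with a hermaphrodite soma, grown at 25°, and were lysed whole by ball milling, so somatic as well as germline RNA was present. Controls were processed without the FLAG antibody, and their labels give the germline but no transgene. In these bulk samples, fewer cells of a type and less RNA per cell cannot be told apart.

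tRNAs are the adaptors of translation: each carries one amino acid and reads its codons by its anticodon. RNA polymerase III transcribes their genes from promoters inside the gene, and the precursors are trimmed at both ends, spliced where they hold an intron, given a terminal CCA and charged by aminoacyl-tRNA synthetases. Most tRNAs are encoded by several near-identical genes, and leucine and serine tRNAs of eukaryotes have a long variable arm and are therefore longer than the rest. FBF-1 and FBF-2 are PUF proteins that maintain germline stem cells by binding mRNAs in their 3' untranslated regions, and tRNAs are not among the RNAs for which they are known. Reads that aligned to several places had been removed, so the counts of a tRNA gene depend on bases that set it apart from its copies, and values of near-identical copies are uncertain. No amino acid identity is given to any gene here, because the files name the genes and do not give their anticodons.

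Depth ranged over 18749 to 1833483 counts on genes in FBF libraries and 59621 to 283777 in controls, and 1 library, FBF-1 oogenic replicate 1, was far below the other FBF libraries. Sperm markers summed to 1148 to 1281 RPM (counts per 1000000 counts on genes) in spermatogenic FBF libraries and 33.5 to 50 RPM in oogenic ones, and oocyte markers to 1685 to 1874 RPM in spermatogenic and 3287 to 5760 RPM in oogenic ones. Of 9 sperm markers, 4 (spe-9, spe-11, spe-4 and gsp-4) were at 0 in the oogenic controls, whereas none of 8 oocyte markers was at 0 in any group. The labels place the libraries on 3 sequencing lanes: spermatogenic FBF libraries and oogenic controls on lane 1, oogenic FBF libraries on lane 2 and spermatogenic controls on lane 3. Lane and group therefore cannot be told apart in any comparison except that of FBF-1 with FBF-2 within a germline and that of spermatogenic FBF libraries with oogenic controls, which crosses germlines.

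Intron-containing tRNA genes were well represented. Of 31 tRNA rows with an intron, 23 were among the 202 genes, against 179 of 665 without one. All 7 genes with an intron of 35, 36 or 38 bases and an exon length of 84 bases were included, among them B0285.t1 and F02D10.t3, and so were 16 of 21 with an intron of 11 bases. Of 96 rows with exons over 80 bases in sum, 52 passed, against 150 of 600 shorter ones. The X chromosome, which holds a large part of the tRNA genes of this species, contributed 79 of the 202 genes, or 39.1%, close to its 40.5% share of all tRNA rows. Inside introns of protein-coding genes lay 89 of the 202 (58 on the strand of the host and 31 on the other), 109 lay outside such genes and 4 overlapped an exon. The study assigned reads to genes by overlap with exons, so a tRNA gene in an intron adds no counts to its host. Reads of host RNA that cover the intron may still be counted on the tRNA gene. Either strand may be affected, as the strand setting of the counting is not given. The 4 genes that overlap an exon may share reads with the host. Only 1 of the 202, C52E12.t1, is annotated as a tRNA pseudogene, against 111 of the 696 rows.

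Counts were unevenly spread. The median gene held 366 counts in all libraries together, 59 genes held 1000 or more, and the 10 genes with the most counts held 33.7% of the total. These were ZK783.t1 (10286 counts), Y38E10A.t1 (9714), F56F4.t2 (9241), C16D9.t2 (8648), K02A4.t1 (8346), K11H3.t1 (7489), ZK380.t1 (6567), B0285.t1 (5763), F02D10.t3 (5470) and F56F3.t1 (5407). In the WBcel235 annotation, ZK783.t1 lies at chromosome III 7642158 to 7642229 in an intron of upp-1, C16D9.t2 at chromosome V 8235458 to 8235539 in an intron of rol-3, and F56F4.t2 at chromosome I 6136597 to 6136669 in an intron of pept-3. All 3 are on the strand of the host gene.

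tRNA genes took a smaller share of the reads with FBF than without antibody, and the smallest share in spermatogenic FBF libraries. The 202 genes held 1.87%, 1.96% and 1.49% of the counts in FBF-1 and 1.49%, 1.76% and 1.68% in FBF-2 libraries from spermatogenic worms, against 4.73%, 7.60% and 5.22% in the spermatogenic controls. From oogenic worms, FBF-1 libraries held 3.32%, 2.35% and 1.83% and FBF-2 libraries 3.62%, 3.88% and 3.63%, against 4.55%, 4.65% and 4.11% in the oogenic controls. In both germlines every FBF library was below every control. rRNA shares, given for comparison, were 12.6% to 16.3% in spermatogenic FBF libraries and 32.2% to 34.9% in their controls, and 14.0% to 39.3% in oogenic FBF libraries and 45.8% to 50.6% in their controls. The part of the rRNA share in the tRNA share was not tested. Of the counts outside rRNA genes, the 202 genes held 2.06% ± 0.32 and 1.93% ± 0.15 with FBF-1 and FBF-2 from spermatogenic worms, against 8.83% ± 2.51 in the controls. From oogenic worms they held 3.48% ± 1.76 and 5.62% ± 0.45, against 8.59% ± 0.41 (SD, n = 3 each).

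**Figure D1:**
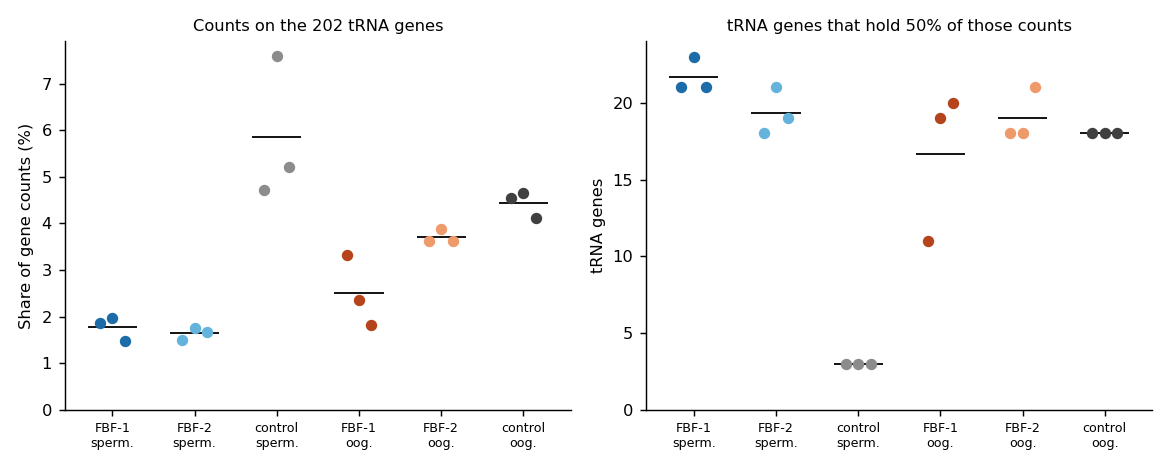
Share of the counts on genes that fell on the 202 tRNA genes (left, percent) and the number of tRNA genes that together held 50% of those counts (right), for each library (points) with the group mean (line). Every control lies above every FBF library of its germline in the left panel, and 3 genes suffice in each spermatogenic control in the right panel, against 11 to 23 in the other libraries.

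The spermatogenic controls stood apart in which tRNA genes they held. Only 3 genes made up 50% of the tRNA counts in each of these controls, against 18 in each oogenic control and 11 to 23 in the FBF libraries, and F56F4.t2 alone took 42.8%, 40.8% and 39.4%. Only 118, 113 and 133 of the 202 genes had a count, against 198, 202 and 194 in the oogenic controls. Thinned to the depth of the smallest control, 59621 counts, 101 to 113 genes would be expected with a count in the spermatogenic controls and 172 to 180 in the oogenic controls, and 142 to 175 in the 11 FBF libraries deep enough. FBF-1 oogenic replicate 1, at 18749 counts, still had 119.

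Of the 202 genes, 60 had no count in any of the 3 spermatogenic controls and none was without a count in the oogenic controls. At the RPM of the oogenic controls, 3229 counts would have been expected on these 60 genes in the 314134 counts of the spermatogenic controls, and 33 of the genes would each have had 10 or more. The genes with a count were split by whether they lay below or above the oogenic controls, so the direction of each gap follows from the split. The 81 below had 1105 counts where 6803 would have been expected, and the 61 above had 16178 where 3897 would have been expected. The genes without a count could pass the minimum of summed counts only through the other groups. That they were read in some of these groups was therefore fixed by this rule, but their share in each group was not. They took 24.4% and 28.1% of the tRNA counts with FBF-1 and FBF-2 from spermatogenic worms. From oogenic worms they took 21.9% and 19.7% with FBF-1 and FBF-2, and in the oogenic controls 23.4%. A count of 0 in the 3 spermatogenic controls together allows up to 9.55 RPM.

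C16D9.t2 had the highest oogenic control level of the genes without a count. It had 0 counts in each spermatogenic control and 241, 529 and 189 counts (1705, 1864 and 1358 RPM) in the oogenic controls, so it was at least 172-fold lower in the spermatogenic controls. T02G6.t1, in an intron of vab-10, had 0 counts against 160, 351 and 118 and was at least 112-fold lower. C29F7.t2 had 0 counts against 105, 225 and 94 (at least 77.2-fold lower), C16D9.t3, in rol-3 like C16D9.t2, 0 against 88, 204 and 98 (at least 71.4-fold lower), and F33D11.t2, in col-54, 0 against 85, 193 and 81 (at least 65.1-fold lower). F56F3.t1, the tenth most counted gene, had 1 count in the spermatogenic controls and 555 in the oogenic controls, a ratio of 0.003 with a counting interval up to 0.018 (exact binomial, 95%). Such bounds and intervals cover counting error only. The genes at 0 were picked for a high oogenic control level, so their lack of overlap between the 2 sets of controls was fixed by that rule. F56F3.t1 did not overlap either.

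At the other end, F56F4.t2 had 20213, 31046 and 20587 RPM in the spermatogenic controls, against 707, 662 and 633 RPM in the oogenic controls, a log2 difference of 4.89 ± 0.17 (SE). ZC132.t1 had 1469, 2918 and 1524 RPM against 92.0, 42.3 and 35.9 RPM (4.86 ± 0.30), and F12D9.t5 had 753, 1208 and 927 RPM against 14.1, 10.6 and 7.19 RPM (6.08 ± 0.34). R02E12.t1 and the intron-containing Y43F4A.t1 were also among the 5 largest rises called, at 2.64 ± 0.46 and 2.55 ± 0.29. Lack of overlap between the sets of controls was a condition for naming these 5 genes. F12D9.t5 was nearly unseen outside the spermatogenic controls, with at most 15.7 RPM in any other library. It passed the minimum of 100 counts through the spermatogenic controls, which held 289 of its 343 counts.

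Tested between the controls, spermatogenic over oogenic, 127 of the 202 genes reached a mean of 5 counts. Of these, 16 rose and 69 fell, where a call needed an adjusted p below 0.01 and a log2 fold change beyond 1 either way (edgeR quasi-likelihood test, Benjamini-Hochberg adjusted). The same rule called 6.28% of all 3137 genes tested higher and 6.73% lower. The median log2 fold change was -2.0 for the tRNA genes (-1.08 without the 26 that were at 0) and -0.02 for all genes. All 26 genes at 0 in the spermatogenic controls that were tested were called lower. Other noncoding classes moved too: 13 of 22 snRNA genes fell and none rose, 17 of 20 mitochondrial genes rose, and 18 snoRNA genes rose and 6 fell of 85. With library-size scaling, which moved the median of all genes to 0.26, 21 tRNA genes rose and 66 fell, and 263 of all genes rose and 171 fell, against 197 and 211 with the TMM scaling used here, which sets libraries level over the bulk of their genes instead of over their totals. Mitochondrial genes held 1.26% to 1.31% of the counts in the spermatogenic controls and 0.18% to 0.30% in every other library. Lane, germline and control batch cannot be told apart here.

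**Figure D2:**
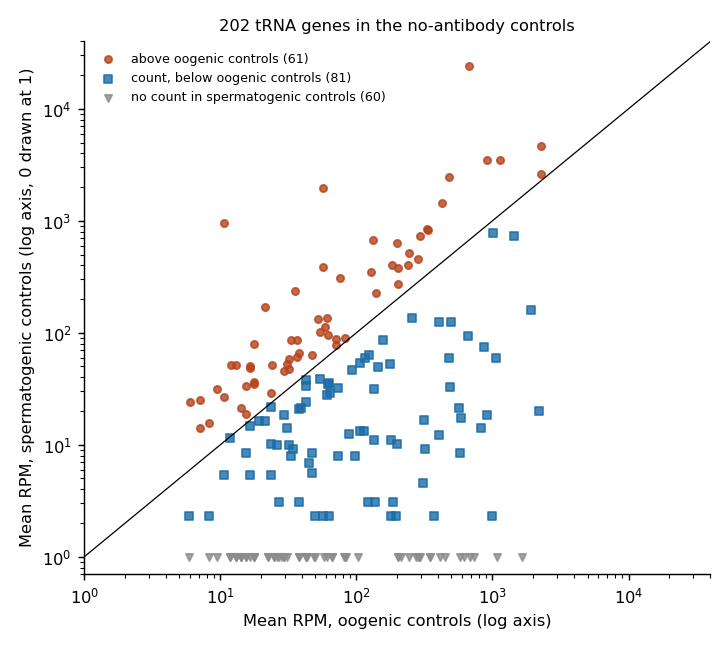
Mean RPM of each of the 202 tRNA genes in the spermatogenic controls (vertical) and the oogenic controls (horizontal), both on log axes, with values of 0 drawn at 1 and the line of equal levels. The 60 genes without a count form the bottom row, up to 1642 RPM in the oogenic controls, and F56F4.t2 is the highest point.

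Calls were also counted by length. Of 38 tested genes with exons over 80 bases, 29 fell and none rose between the controls, with a median log2 fold change of -5.02, whereas of 89 shorter genes 40 fell and 16 rose, with a median of -1.17. Genes inside introns of protein-coding genes were at 0 in the spermatogenic controls in 33 of 89 cases and genes outside in 26 of 109. X-linked genes (24 of 79) and autosomal genes (36 of 123) were at 0 in like proportions, as were intron-containing (5 of 23) and intronless ones (55 of 179). These proportions were not tested.

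FBF over control in spermatogenic germlines asked which tRNAs came down with FBF beyond background. For this and the comparison between germlines, each FBF-1 library was added to an FBF-2 library, giving 3 combined replicates per germline. Genes with a mean of 20 counts over the combined FBF replicates compared were tested. Controls did not enter this filter, so genes high in the controls and low with FBF could go untested, as F12D9.t5 did. With their own controls as reference, 184 of the 202 genes were tested, and 68 rose and 44 fell with FBF (edgeR quasi-likelihood test, Benjamini-Hochberg adjusted, library-size scaling). Among all 8269 genes tested, 29.2% rose and 5.78% fell. The median log2 fold change was 1.83 for the tRNA genes, against 0.71 for all genes, and 0.62 when the 55 genes at 0 in the controls were set at their lower bound. Without these 55 genes it was -0.28. Of the 68 genes that rose, 36 had no count in the spermatogenic controls and the other 32 were lower in them than in the oogenic controls. Of the 44 that fell, 41 were higher in the spermatogenic than in the oogenic controls. With TMM, 58 tRNA genes rose and 49 fell, and 1795 of all genes rose and 804 fell, against 2414 and 478 with library-size scaling, with the median of all genes at 0.36. With the oogenic controls, sequenced on the same lane as the spermatogenic FBF libraries, as reference, 2 rose and 88 fell, with a median of -1.02, while of all 8269 genes 3805 rose and 262 fell, with a median of 1.17. With all 6 controls, 2 tRNA genes rose and 34 fell, while of all genes 2843 rose and 194 fell.

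The 5 largest rises called were of genes without a count in the spermatogenic controls. C16D9.t2 had 748, 721 and 720 RPM with FBF-1 and 934, 991 and 918 RPM with FBF-2, against 0 in the 3 spermatogenic controls, or at least 88.0-fold more, but was 0.98 lower on the log2 scale than the oogenic controls. C16D9.t3 was at least 32.2-fold, T02G6.t1 at least 30.1-fold, Y18H1A.t1 at least 28.9-fold and W02H3.t1 at least 28.3-fold higher with FBF than in the spermatogenic controls. All 4 were likewise lower than in the oogenic controls, with log2 fold changes of -1.16, -1.93, -0.60 and -1.08. The 5 largest falls called were of genes higher in the spermatogenic than in the oogenic controls. F56F4.t2 had 126, 133 and 86.0 RPM with FBF-1 and 98.0, 101 and 99.5 RPM with FBF-2, against 20213, 31046 and 20587 RPM in the controls, a log2 fold change of -7.82 ± 0.16 (SE). ZC132.t1 fell by 6.60 ± 0.16, Y97E10C.t1 by 4.11 ± 0.27, Y43F4A.t1 by 3.85 ± 0.23 and C28G1.t2 by 3.76 ± 0.14 on the log2 scale.

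Y110A2AL.t2 and F49C5.t3, singled out after their values were seen, were the 2 genes that rose with FBF in spermatogenic worms whichever controls were used. Both are 82 bases long and lie on chromosome II, at 2861550 to 2861631 outside protein-coding genes and at 12541930 to 12542011 opposite to nimk-1. Y110A2AL.t2 had 42.6, 60.9 and 31.4 RPM with FBF-1 and 31.2, 32.6 and 40.7 RPM with FBF-2, against 9.18, 0 and 6.87 RPM in the spermatogenic controls, 2 counts in all. Its log2 fold change was 2.56 ± 0.81 (adjusted p = 0.0043, edgeR) over those controls, 1.84 ± 0.52 (0.00097) over the oogenic ones, and 2.06 ± 0.43 over all 6 (0.00053). The counts give a ratio of 5.98 with an interval of 1.63 to 49.7 over the spermatogenic controls. F49C5.t3 had 66.9, 81.9 and 47.1 RPM with FBF-1 and 32.7, 51.2 and 61.0 RPM with FBF-2, against 0 in all 3 spermatogenic controls (at least 5.78-fold) and 7.07, 14.1 and 14.4 RPM in the oogenic controls. Over the oogenic controls it rose by 2.15 ± 0.46 (adjusted p = 9.9e-06, edgeR). Both genes are low, with 264 and 386 counts in all libraries.

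FBF over control in oogenic germlines left a single tRNA gene above background. Of 155 genes tested, 1 rose and 15 fell, while 29.6% of all 6424 genes tested rose and 1.7% fell. The median log2 fold change was -0.40 for the tRNA genes and 0.90 for all genes. With TMM normalization, which brought the median of all genes to 0.17, 1 tRNA gene rose and 71 fell, and among all genes 991 rose and 816 fell, against 1902 and 109 with library-size scaling. Without combined replicate 1, which is nearly all FBF-2, 41 of 178 tested tRNA genes fell, beside 179 of all 7094 genes. With FBF-1 libraries alone 43 of 125 fell, beside 164 of all 5719 genes. With FBF-2 libraries alone 5 of 111 fell, beside 52 of all 2920 genes. Against the spermatogenic controls 72 tRNA genes rose and 23 fell, while of all 6424 genes 1706 rose and 411 fell, so the direction turned with the choice of controls here too.

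Among called genes whose libraries did not overlap, C38C6.t1 showed the largest fall. It had 53.3, 95 and 58.9 RPM with FBF-1 and 88.1, 110 and 150 RPM with FBF-2, against 474, 546 and 474 RPM in the oogenic controls (log2 fold change -2.35 ± 0.25, adjusted p = 9.9e-09, edgeR). T01B4.t3 fell by 1.81 ± 0.29, ZK1067.t1 by 1.64 ± 0.23, R148.t1 by 1.51 ± 0.33 and W02H3.t1 by 1.40 ± 0.19. ZK1067.t1 and R148.t1 each have an intron of 11 bases. Lack of overlap was a condition for naming these 5 genes, so no library with FBF reached the level of a control. By length, 10 of 36 tested genes with exons over 80 bases fell, against 5 of 119 shorter ones.

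ZK1010.t1 was the exception, and the one tRNA gene that rose with FBF in oogenic worms. It lies at chromosome III 13009423 to 13009499, in an intron of snf-7 on the same strand, and is 77 bases long. It had 533, 278 and 249 RPM with FBF-1 and 458, 553 and 444 RPM with FBF-2, against 14.1, 35.2 and 43.1 RPM in the oogenic controls (log2 fold change 3.50 ± 0.33, adjusted p = 1.2e-09, edgeR). It was higher in all 6 libraries than in any other library of the series. From spermatogenic worms it had 22.3, 24.7 and 14.1 RPM with FBF-1 and 13.4, 11.5 and 19.2 RPM with FBF-2, against 0 in the 3 controls. Spermatogenic over oogenic it fell by 4.65 ± 0.27 with both proteins combined, by 3.80 ± 0.19 with FBF-1 and by 5.55 ± 0.19 with FBF-2. The oogenic FBF libraries are those of lane 2, so lane and oogenic FBF cannot be told apart.

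**Figure D3:**
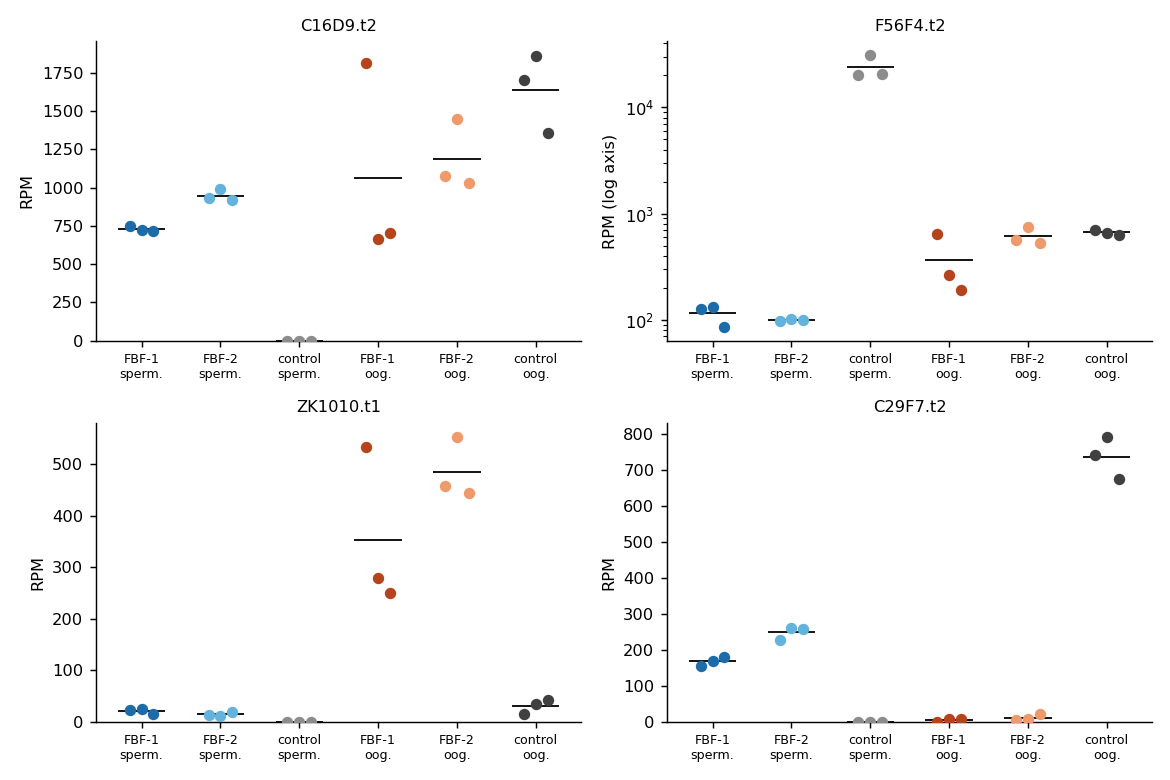
RPM of C16D9.t2, F56F4.t2, ZK1010.t1 and C29F7.t2 in each library (points) with the group mean (line), where sperm. is spermatogenic and oog. oogenic, and the axis for F56F4.t2 is logarithmic. ZK1010.t1 is high in oogenic FBF libraries, at 249 to 553 RPM, and C29F7.t2 is nearly absent there, at 0 to 20.4 RPM.

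FBF iCLIP of spermatogenic over oogenic worms compared the 2 germlines directly. Of 168 genes tested, 5 rose and 53 fell (edgeR quasi-likelihood test, Benjamini-Hochberg adjusted, TMM), against 10.2% of all 7501 genes that rose and 4.71% that fell. The median log2 fold change was -0.83 for the tRNA genes and -0.01 for all genes. Of 36 snRNA genes 7 fell, and the 7 rRNA genes had a median of -1.14 with none called. Without combined oogenic replicate 3, which is mostly FBF-1, 3 of 160 tRNA genes rose and 85 fell, beside 849 and 297 of all 7249 genes. Without combined oogenic replicate 1, 11 of 182 rose and 40 fell, beside 907 and 383 of all 7926 genes, and the tRNA median was -0.52.

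The count of genes that fell depended on the protein. With FBF-1 libraries alone 7 of 125 tested genes rose and 5 fell, with a median log2 fold change of -0.20, beside 507 and 252 of all 6053 genes, whereas with FBF-2 libraries alone 2 of 113 rose and 79 fell, with a median of -1.86, beside 282 and 272 of all 4808 genes. Of 107 genes tested with both proteins, 105 had the lower value with FBF-2. ZK783.t1 had 624, 516 and 503 RPM with FBF-1 and 291, 370 and 193 RPM with FBF-2 from spermatogenic worms, against 2827, 1578 and 794 RPM with FBF-1 and 2459, 2182 and 2194 RPM with FBF-2 from oogenic worms. It fell by 3.53 ± 0.16 with FBF-2, and its value with FBF-1, -1.33 ± 0.46, did not pass (adjusted p = 0.085, edgeR). F56F4.t2 fell by 3.12 ± 0.15 with FBF-2 and by 1.06 ± 0.16 with FBF-1. F33D11.t2 and F42G10.t1, the next in size among called genes without overlap, fell by 1.86 ± 0.18 each with both proteins combined.

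**Figure D4:**
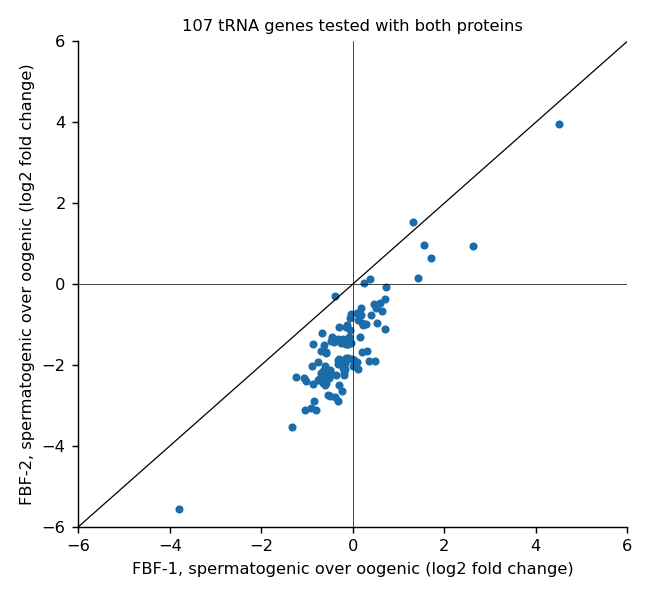
Log2 fold change, spermatogenic over oogenic, of 107 tRNA genes with FBF-2 libraries (vertical) and with FBF-1 libraries (horizontal), each point one gene, with the line of equal change. All but 2 of the points lie below the line. The lowest point is ZK1010.t1 and the highest C29F7.t2.

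The 5 genes that rose in spermatogenic worms were all low in the oogenic FBF libraries. C29F7.t2 had 155, 169 and 181 RPM with FBF-1 and 229, 260 and 258 RPM with FBF-2 from spermatogenic worms, against 0, 8.26 and 7.09 RPM with FBF-1 and 3.92, 8.78 and 20.4 RPM with FBF-2 from oogenic worms (log2 fold change 4.42 ± 0.25, adjusted p = 1.4e-10, edgeR). Lack of overlap between the groups was a condition for naming it. The oogenic controls had 743, 793 and 676 RPM, far more than either set. C29F7.t2 lies on the X chromosome at 13442643 to 13442724, 662 bases from F02D10.t3, which had 566 RPM or more in every oogenic library. F22H10.t1, also X-linked and 82 bases long, had the same order, with 31.2 to 68.5 RPM with FBF from spermatogenic worms, 0 to 22.7 RPM with FBF from oogenic worms and 180 to 225 RPM in the oogenic controls. F49C5.t3, Y110A2AL.t2 and T22F3.t3 rose by 1.26 ± 0.18, 1.36 ± 0.23 and 1.17 ± 0.32. Of these 5 genes, 4 are 82 bases long. Without combined oogenic replicate 3, T22F3.t3 (0.63, adjusted p = 0.28 by edgeR) and Y110A2AL.t2 (1.12) did not pass, and F22H10.t1 did not pass with FBF-2 libraries alone (0.94).

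FBF-1 and FBF-2 differed at many tRNA genes in oogenic worms and at 1 in spermatogenic worms. From spermatogenic worms, 1 of 117 tested genes rose with FBF-1 and none fell, against 4% and 1.72% of all 6203 genes. Of the 117, 31 had an unadjusted p under 0.05, DESeq2 also called 1 and 0, and the median log2 fold change was 0.11. The gene was Y46G5A.t1, in an intron of snrp-200, with 169, 225 and 170 RPM with FBF-1 and 108, 95.3 and 64.4 RPM with FBF-2 (log2 fold change 1.01 ± 0.16, adjusted p = 3.1e-05, edgeR). It lay at the fold minimum and was not called without FBF-1 replicate 2 (0.87) or FBF-2 replicate 3 (0.83).

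From oogenic worms, none of 119 tested genes rose with FBF-1 and 86 fell, against 3.95% and 4.12% of all 4737 genes, and the median log2 fold change was -1.33 against 0.01. K07A1.t1 had 160, 233 and 214 RPM with FBF-1 and 593, 724 and 583 RPM with FBF-2 (log2 fold change -2.02 ± 0.16, adjusted p = 1.2e-34, edgeR). K11C4.t1 fell by 1.93 ± 0.19, T25B6.t2 by 1.92 ± 0.17 and C53D6.t1 by 1.87 ± 0.26. Lack of overlap was a condition for naming these genes. Among called genes, C24H11.t1 had the largest fitted fall, 2.66 ± 0.31. This value rests on 0, 27 and 33 counts with FBF-1 against 33, 14 and 79 with FBF-2. C24H11.t1 was not called without FBF-1 replicate 1 (-2.68, adjusted p = 0.072 by edgeR) or FBF-1 replicate 3 (-1.96, 0.09 by edgeR). With DESeq2, neither C24H11.t1 (-2.5) nor C53D6.t1 (-1.95) was called. In RPM, 55 of the 119 genes were lower in every FBF-1 library than in every FBF-2 library and 1 was higher, and of all 4737 genes 240 were lower and 1222 higher in this way. FBF-1 replicate 1, with 18749 counts and an rRNA share of 39.3%, lay closer to FBF-2 at F56F4.t2, which had 640, 264 and 193 RPM with FBF-1 and 566, 742 and 526 RPM with FBF-2. At K07A1.t1 the same replicate, at 160 RPM, was the FBF-1 library farthest from FBF-2. Without that replicate 94 of 130 tested tRNA genes fell, beside 212 of all 5171 genes. Without replicate 3 of FBF-1 49 of 100 fell, beside 137 of all 3154 genes. With DESeq2 36 of 119 fell, beside 89 of all 4737 genes, and with library-size scaling 40 of 119. Under each of these settings no tRNA gene rose. Library-size scaling moved the median of all genes to 0.52, with 874 of all genes higher and 59 lower, against 187 and 195 with TMM, and the tRNA median was then -0.81.

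rRNA and snRNA moved in the same direction. Of 7 rRNA genes 4 fell with FBF-1 from oogenic worms, of 20 snRNA genes 9 fell and none rose, and protein-coding genes had a median of 0.05. The rRNA share was 39.3%, 17.7% and 14.0% with FBF-1 and 31.2%, 36.6% and 33.8% with FBF-2. Its part in the difference of tRNA genes was not tested.

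**Figure D5:**
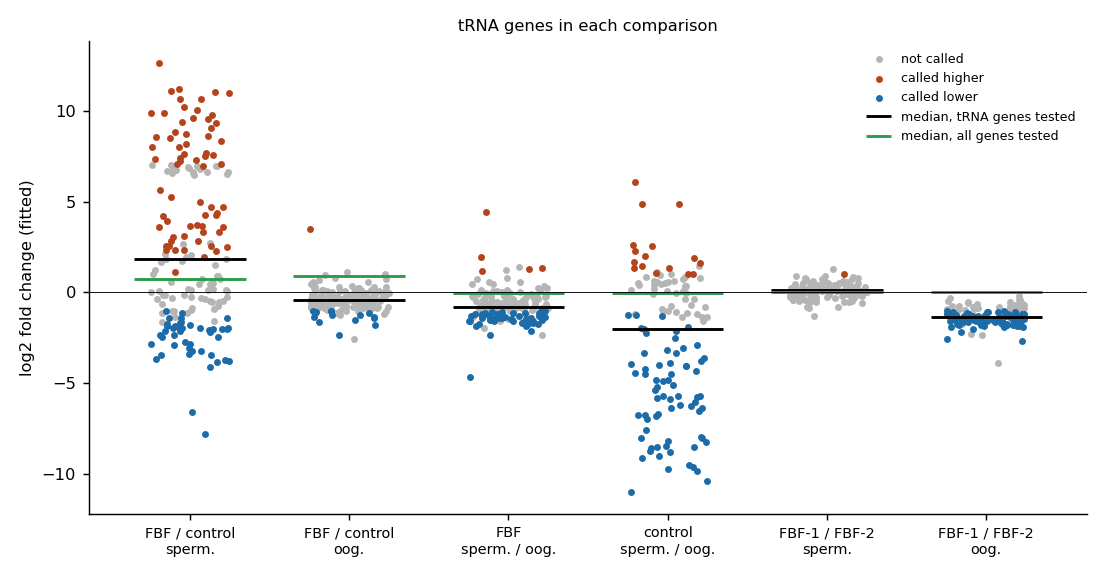
Fitted log2 fold changes of the tested tRNA genes (points, with called genes in color) in 6 comparisons, with the median over these genes (black line) and over all genes tested (green line), where sperm. is spermatogenic and oog. oogenic. The tRNA median is 1.83 and the all-gene median 0.71 for FBF over control in spermatogenic worms, with points from -7.82 to 12.65, and -1.33 and 0.01 for FBF-1 over FBF-2 in oogenic worms.

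The difference between the germlines was itself tested. In the contrast of FBF-1 over FBF-2 between spermatogenic and oogenic worms, which was added after the data were seen, 80 of 168 tested genes were higher and none lower, against 2.51% and 1.15% of all 7501 genes (edgeR quasi-likelihood test, Benjamini-Hochberg adjusted, TMM). The median was 1.39 for tRNA genes and -0.07 for all genes. Without FBF-1 oogenic replicate 1, 72 of 177 tested tRNA genes were higher and none lower, beside 167 and 85 of all 7735 genes. With library-size scaling 54 tRNA genes were higher and none lower. In that setting 91 of all genes were higher and 709 lower, against 188 and 86 with TMM. Among called genes, the largest values belonged to F14B6.t2, Y40H7A.t1, T14F9.t1, Y92H12A.t1 and F29C4.t1, each with 135 to 332 counts in all. Among well-counted genes, Y46G5A.t1 reached 2.31 ± 0.23, F33D11.t2 2.24 ± 0.24 and F56F4.t2 1.98 ± 0.33, whereas C16D9.t2, at 0.72 ± 0.22, did not pass. In the contrast of FBF over control between the germlines, 56 of 168 genes were higher and 22 lower, against 1.68% and 1.59% of all genes. This contrast holds the spermatogenic controls, and the 5 highest values among its called genes were those of genes at 0 in them.

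The mRNAs of the tRNA machinery were described as lists. Of 22 cytoplasmic aminoacyl-tRNA synthetases, which join tRNAs to their amino acids, 21 were found in the table and tested, and 9 rose with FBF over control in spermatogenic and 5 in oogenic worms, with none lower and medians of 1.03 and 0.85. These shares stand beside the 29.2% and 29.6% of all genes given above. The asparaginyl enzyme nars-1 had the largest rise in both germlines, by 2.94 ± 0.38 and 2.94 ± 0.39, followed by the alanyl enzyme aars-2 with 2.59 ± 0.31 and 1.93 ± 0.27. None of the 21 was called between spermatogenic and oogenic FBF libraries, and their summed level was 2397 to 2605 RPM in spermatogenic and 2194 to 2593 RPM in oogenic FBF libraries. Of 14 genes for tRNA processing, modification and export, 9 were found. The export receptor xpo-3 rose over control in both germlines (1.82 ± 0.32 and 1.57 ± 0.28), as did one thiolation enzyme in each, tut-1 in spermatogenic and tut-2 in oogenic worms. tut-1 had no count in the spermatogenic controls and tut-2 had 4.71 RPM in the oogenic controls. None of the 9 was called between FBF libraries of the germlines, and none of the 7 tested in spermatogenic or the 4 tested in oogenic worms between FBF-1 and FBF-2.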

How the data were processed

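For 26709 genes, the values the authors deposited are counts of reads, not normalized. As their methods state, reads were split by barcode, clipped and mapped with STAR by local alignment, multi-mapping reads were removed, duplicates were collapsed by barcode, and reads were counted on genes with HTSeq. The submitters' processing notes also name Novoalign. Versions, genome build, annotation and strand setting are not given in the sources used here. Reads on no gene (9.54% to 20.2% of a library) and ambiguous reads entered neither library sizes nor tests.

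All 696 tRNA names matched Ensembl release 115 (WBcel235), the source of coordinates, introns and hosts. No genome sequence was used here, so no tRNA sequences are shown. The tRNA genes, lists and comparisons were chosen with earlier results of these data known. Except where the proteins were compared, a library of each protein was added to one of the other, giving 3 combined replicates per germline as in the study's methods. Genes with a mean of 20 counts (5 between controls) entered robust quasi-likelihood tests (R 4.3.3, edgeR 4.0.16, limma 3.58.1), with TMM, or library-size scaling for FBF over control and its contrast between germlines. For FBF over control and its contrast, the mean was taken over the FBF replicates and not the controls. For the contrast of FBF-1 over FBF-2 between germlines, it was taken per combined replicate. A call needed a false discovery rate (Benjamini-Hochberg) below 0.01 and a log2 fold change beyond 1 either way. An SE is the fold change over the root of its F statistic. Folds against 0 counts used 3 counts over the summed group depth. The labels call libraries replicates, which the study describes as biological. Replicates differed by more than sampling noise.

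Genes were named by a rule: the 10 with the most counts, in each comparison the 5 largest rises and falls among called genes whose libraries did not overlap (in the contrasts between germlines, among called genes), the 5 with the highest oogenic control level among those at 0 in the spermatogenic controls, and those beside the minimum of 100 counts. Alternatives were DESeq2 1.42.0, other scalings, filters, controls and combinations of libraries, each replicate left out and the replicate number as a block. Summaries and plots were made in Python 3.11.15 (matplotlib 3.10.9, pandas 2.3.3, numpy 2.4.6, scipy 1.17.1).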

Additional observations from a re-analysis of the deposited data

Results flagged for a closer look

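Effects that differed between the germlines by a test of the difference were looked at again (edgeR quasi-likelihood test, Benjamini-Hochberg adjusted). The contrast of FBF over control between the germlines called 126 of all 7501 genes higher and 119 lower. FBF over control differed between spermatogenic and oogenic worms for 78 of 168 tested tRNA genes. Among these, the largest fitted values were 16.81 for C29F7.t2, 13.34 for C16D9.t2, 12.53 for F22H10.t1, 12.22 for W02H3.t1 and 12.18 for C16D9.t3. These 5 genes had no count in the spermatogenic controls, so the size of the fitted values depends on the prior count and is no bound. The lowest were -7.03 for F56F4.t2, -5.56 for ZC132.t1, -3.59 for Y43F4A.t1, -3.42 for C28G1.t4 and -3.20 for C28G1.t2, which were all high in the spermatogenic controls.

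The contrast of FBF-1 over FBF-2 between the germlines called 188 of all 7501 genes higher and 86 lower. FBF-1 over FBF-2 differed between spermatogenic and oogenic worms for 80 of 168 tested tRNA genes. Among these, the largest values were 3.38 for F14B6.t2, 3.11 for Y40H7A.t1, 2.87 for T14F9.t1, 2.59 for Y92H12A.t1 and 2.58 for F29C4.t1, with 0 to 2 counts each in the smallest FBF-1 library from oogenic worms.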

How the results depend on the processing

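Numbers below are tRNA genes called. For FBF over control in spermatogenic worms, 2 rose with the oogenic controls or with all 6, and 88 fell with the oogenic controls. With FBF-1 libraries alone 29 of 123 tested fell, beside 386 of all 6323 genes. With FBF-2 libraries alone 26 of 109 fell, beside 375 of all 6060 genes. For FBF over control in oogenic worms, 72 rose and 23 fell with the spermatogenic controls. With no fold minimum 26 fell, with TMM 71, with DESeq2 63 and with scaling outside rRNA, tRNA and mitochondrial genes 65. Of all 6424 genes, in that order, 196, 816, 804 and 696 fell, against 109 in the main fit. With all 6 controls 6 fell, beside 172 of all genes. With FBF-1 alone 43 of 125 tested fell, beside 164 of all 5719 genes. With FBF-2 alone 5 of 111 fell, beside 52 of all 2920 genes. For FBF in spermatogenic over oogenic worms, 9 of 202 rose with no count filter, beside 1880 of all 22650 genes. With FBF-2 alone 2 rose, and with FBF-1 alone 5 fell. For FBF-1 over FBF-2 in spermatogenic worms, 3 rose and 7 fell with no fold minimum, beside 753 and 621 of all 6203 genes. With no count filter 4 rose, beside 358 of all 20658 genes. In oogenic worms 40 fell with library-size scaling and 36 with DESeq2, beside 59 and 89 of all 4737 genes. The cause of these shifts was not tested. The direction of the tRNA median of FBF over control turned with other controls and, in spermatogenic worms, to -0.28 without the genes at 0 in the controls.

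With each replicate left out, FBF over control in spermatogenic worms gave 54 to 68 of 167 to 190 tested tRNA genes higher and 36 to 44 lower. Of all genes, 1876 to 2345 were higher and 376 to 470 lower. In oogenic worms it gave 1 of 135 to 178 higher and 10 to 41 lower, beside 1161 to 2600 and 69 to 179 of all genes. FBF in spermatogenic over oogenic worms gave 3 to 11 of 160 to 182 higher and 40 to 85 lower, beside 535 to 907 and 297 to 383 of all genes. The controls gave 12 to 18 of 111 to 136 and 55 to 72, beside 147 to 220 and 145 to 222. FBF-1 over FBF-2 gave 0 to 5 of 110 to 125 and 0 to 1 in spermatogenic worms, beside 229 to 275 and 99 to 140. In oogenic worms it gave 0 of 100 to 130 and 49 to 97, beside 145 to 185 and 137 to 224. The contrast of FBF over control gave 44 to 69 of 160 to 182 and 17 to 28, beside 95 to 149 and 94 to 187.

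The replicate number was also fitted as a block. Numbers did not pair the samples: same-numbered deviations correlated at -0.24 to 0.18, in none of 9 pairs of groups all over 0.1, and in 12 of 27 same-numbered pairs the library correlated best with its own number. With the block, FBF-1 over FBF-2 in spermatogenic worms gave 2 tRNA genes higher and 1 lower, beside 252 and 109 of all 6203 genes. In oogenic worms it gave 85 lower, beside 202 of all 4737 genes. No other count of tRNA genes moved by over 1.5 times.

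Single genes turned direction with other controls only. In spermatogenic worms with the oogenic controls, C16D9.t2 had -0.98, C16D9.t3 -1.16, T02G6.t1 -1.93, Y18H1A.t1 -0.60 and W02H3.t1 -1.08, and with all 6 controls C16D9.t2 had -0.01, C16D9.t3 -0.24, T02G6.t1 -0.96 and W02H3.t1 -0.18. In oogenic worms with the spermatogenic controls, T01B4.t3 had 8.29, ZK1067.t1 4.27, R148.t1 2.25 and W02H3.t1 10.21. Depth limits the spermatogenic controls, at 59621 to 145625 counts, and FBF-1 oogenic replicate 1, at 18749.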
